A study of Mus musculus with 13 samples.

Results

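The 9 genes described here encode ATP-binding cassette (ABC) transporters that pump drugs, conjugates or lipids out of cells. They are Abcb1a, Abcb1b and Abcg2 (drug efflux pumps), Abcc1, Abcc3, Abcc4 and Abcc5 (exporters of organic anions and conjugates) and Abca1 and Abcg1 (lipid exporters). All 24 probe sets annotated to these symbols were taken, of 34945 probe sets with exactly 1 symbol, and each gene was represented by its brightest probe set among 18193 genes. The arrays compared neuroblastoma, a tumour of the sympathetic nervous system of childhood, with normal adrenal gland in C57BL/6 mice. The groups were 3 tumours with the genotype mutALK, 4 with MYCN, 3 with MYCN AND mutated ALK (called double transgenic below) and 3 adrenal glands with the genotype normal. The transgenes were expressed in the neural crest, animals were killed once a tumour could be felt, and no treatment was given. The adrenal samples held cortex as well as the medulla, in which the sympathetic lineage lies, and the ages of the animals are not given in the sources used here.

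An ABC transporter couples the hydrolysis of ATP to movement of a substrate across a membrane. P-glycoprotein (Abcb1a and Abcb1b in the mouse), the breast cancer resistance protein Abcg2 and the multidrug resistance proteins of the ABCC subfamily limit the amount of chemotherapy drug that stays in a tumour cell. In human neuroblastoma ABCC1 and ABCC4 have been described as genes that MYCN activates, and in the mouse adrenal cortex Abcb1b is the main form of P-glycoprotein. Abca1 and Abcg1 pass cholesterol and phospholipid to lipoproteins and are induced by liver X receptors.

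Promoter sequence was looked up for the members because several were lower in every tumour group. RefSeq windows of GRCm38.p6 matched 6 of the 9 genes, namely Abcb1a, Abcb1b, Abcg2, Abcc4, Abcc5 and Abca1. The stretches printed are the 250 bases before the start for the Abcb1 pair and, for Abca1, the 157 bases that lie outside the annotated gene, since these 3 genes showed the largest falls. Capitals mark matches on either strand to CACGTG (the E-box of MYC-family factors), GGGCGG (GC box), ATTGG (the CCAAT box read on the other strand) or AGGTCA (a nuclear receptor half-site).
Abcb1a, chr5:8566841-8567090, plus strand: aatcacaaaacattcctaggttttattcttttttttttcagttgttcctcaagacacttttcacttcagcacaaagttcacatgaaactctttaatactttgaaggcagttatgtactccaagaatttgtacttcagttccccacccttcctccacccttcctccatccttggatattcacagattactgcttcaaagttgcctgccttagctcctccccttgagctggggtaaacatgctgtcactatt
Abcb1b, chr5:8797897-8798146, plus strand: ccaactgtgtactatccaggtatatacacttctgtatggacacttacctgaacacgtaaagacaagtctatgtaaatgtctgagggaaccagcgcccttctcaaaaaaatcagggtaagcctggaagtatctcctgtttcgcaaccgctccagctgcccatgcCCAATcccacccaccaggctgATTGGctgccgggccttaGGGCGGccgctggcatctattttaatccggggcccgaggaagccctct
Abca1, chr4:53159989-53160145, minus strand: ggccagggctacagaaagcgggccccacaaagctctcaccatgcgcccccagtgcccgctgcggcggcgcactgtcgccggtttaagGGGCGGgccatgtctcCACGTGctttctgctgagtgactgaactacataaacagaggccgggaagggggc
Abcb1a held no match to the motifs, Abcb1b held 1 GGGCGG and 2 ATTGG, and the Abca1 stretch held 1 CACGTG and 1 GGGCGG. The full 250 bases of the Abca1 window held 1 CACGTG and 2 GGGCGG. Of all 32851 windows, 6.02% held CACGTG, 32.7% GGGCGG, 33.8% ATTGG and 14% AGGTCA in their 250 bases. One Abcc4 window held 1 CACGTG and 3 GGGCGG, the other Abcc4 window and the Abcc5 window held none of the motifs, and the 3 Abcg2 windows held 0, 2 and 4 GGGCGG and 2, 0 and 1 AGGTCA. The Abcc4 windows and Abcg2 windows 2 and 3 lay wholly inside their own annotated genes. The Abcb1a stretch overlaps the annotated gene Rundc3b and the Abcb1b stretch overlaps the annotated gene Gm5106. Abcb1a and Abcb1b are neighbours on chromosome 5 with 0 protein-coding genes between them. The matches are counts of letters and not evidence that a factor is bound.

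Values are the authors' log2 expression. A level is a mean ± SD over arrays, and a difference, with its SE, takes the second group named from the first. A difference was called at an adjusted p under 0.05 in limma. Array medians lay between 5.8 and 5.9, correlations within a group across probe sets (which are not replicates) between 0.938 and 0.991, and signal over background was not analysed. A liver marker list (18 of 19 measured) averaged 8.7 to 11.85 on 5 arrays (mutALK 1 and 3, MYCN 2, adrenal 2 and double transgenic 1) and 4.3 to 5.78 on the other 8. These are called the liver arrays, and leaving them out keeps 2 adrenal, 1 mutALK, 3 MYCN and 2 double transgenic arrays, with the lone mutALK array assumed to vary like the other groups. Neuronal markers averaged 10.52 to 12.18 in the 10 tumours against 6.41, 9.52 and 5.49 in adrenal 1, 2 and 3. By sex-linked genes the 3 adrenal arrays were female, and the tumours were 2 female and 1 male (mutALK), 1 and 3 (MYCN) and 1 and 2 (double transgenic). The labels do not state that each array is another animal, and 2 title numbers are shared by pairs of arrays (mutALK 2 and 3, MYCN 2 and 3), so the p-values cover the spread among these samples, which may be technical in part. In bulk tissue fewer cells of a type and less RNA per cell cannot be told apart.

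Against adrenal gland the 9 transporters moved in both directions. Abcb1a, Abcb1b, Abcc4 and Abca1 were lower in all 3 tumour groups, Abcc1 was higher in all 3, and Abcg2 was lower in MYCN and in double transgenic tumours. In mutALK tumours 3 members were higher and 4 lower, where 42.2% of all genes were called in either direction (21.3% higher and 21% lower). In MYCN tumours 3 were higher and 5 lower, where 50.2% of all genes were called (25.4% and 24.8%). In double transgenic tumours 2 were higher and 5 lower, where 48.6% were called (24.3% and 24.2%). The median size of the difference among the members, without its sign, was 0.94, 1.36 and 1.07 in the 3 comparisons, against 0.4, 0.49 and 0.48 over all genes. Groups that did not overlap were found for 24% of all genes on the higher and 24.1% on the lower side in mutALK, 26.8% and 26.7% in MYCN and 26.5% and 26.7% in double transgenic tumours. The 3 comparisons share the adrenal arrays and are not independent of each other.

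**Figure D1:**
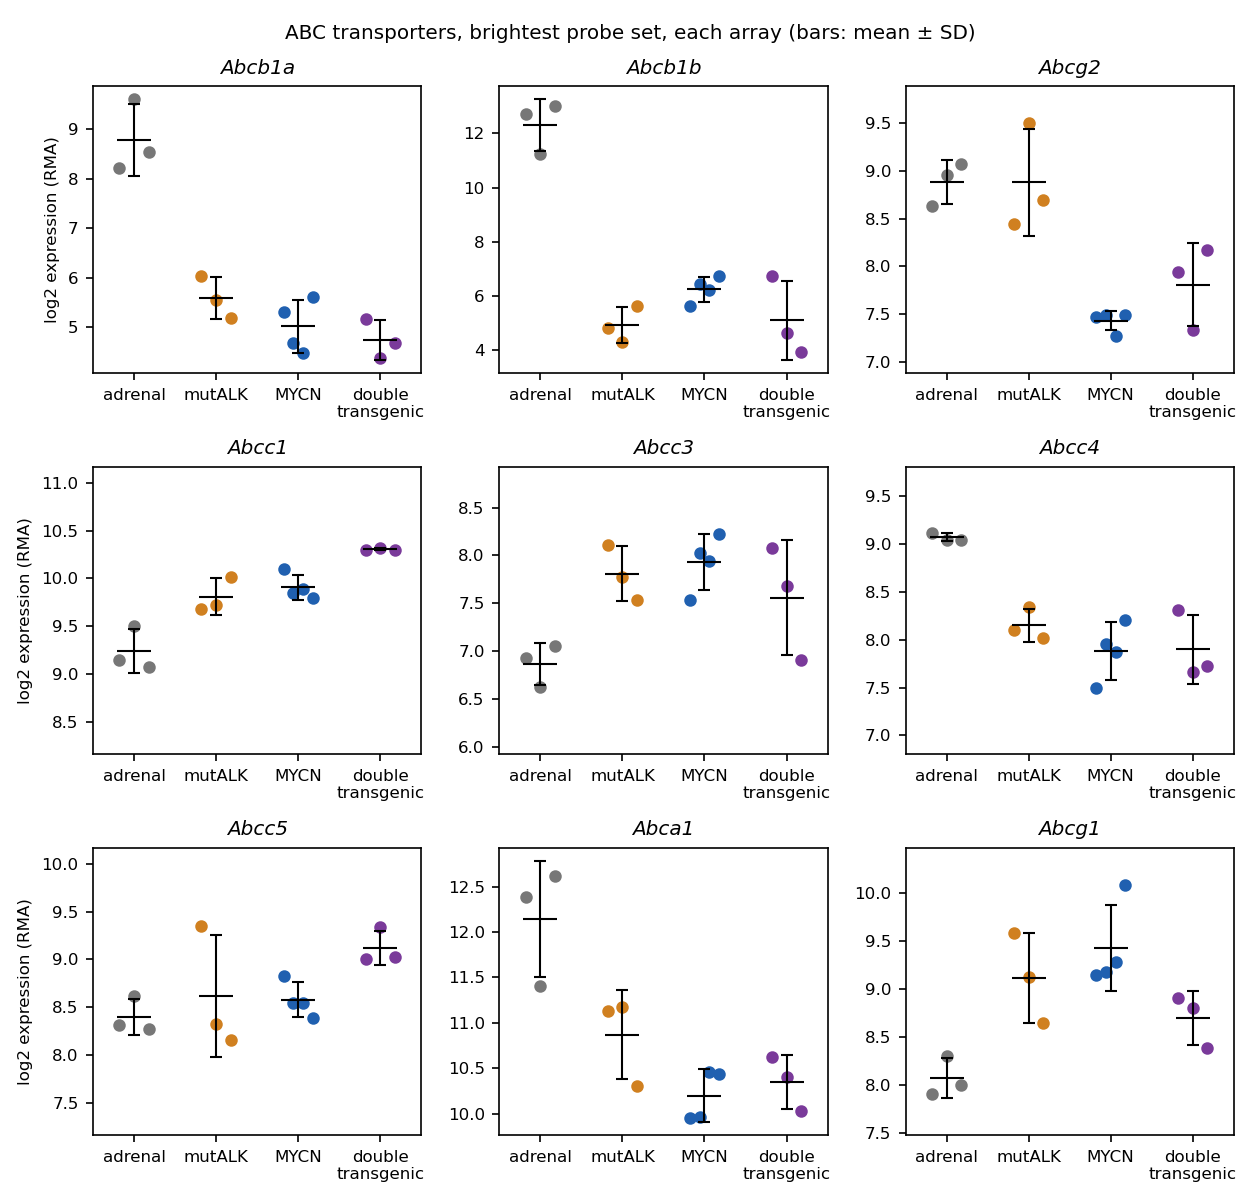
Log2 expression (y axis) of the brightest probe set of each of the 9 transporters on every array, by group, with bars for mean ± SD. Abcb1a, Abcb1b, Abcc4 and Abca1 sit highest in adrenal gland, while the MYCN points of Abcg2 lie between 7.27 and 7.49, below every mutALK and adrenal point.

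The P-glycoprotein genes showed the largest differences of the set. Abcb1b read 12.7, 11.23 and 13 on the 3 adrenal arrays. It read 4.83, 4.33 and 5.65 in mutALK, 5.65, 6.43, 6.23 and 6.73 in MYCN and 6.75, 4.64 and 3.95 in double transgenic tumours. Every tumour array thus lay more than 4 log2 units under the lowest adrenal array, which was adrenal 2. Abcb1b changed by -7.37 ± 0.67 in mutALK (adjusted p = 8.95e-06), by -6.05 ± 0.63 in MYCN (9.32e-06) and by -7.2 ± 0.67 in double transgenic tumours (5.61e-06). The size rests on the brighter probe set. Tested over every probe set, where 33.2% (mutALK), 41.7% (MYCN) and 41.4% (double transgenic) were called against adrenal gland, the dimmer one differed by -1.06 ± 0.36, -1.19 ± 0.33 and -1.22 ± 0.36 (adjusted p = 0.0397, 0.0128 and 0.0163). Its value of 4 on adrenal 2 lay among the tumours, which ran from 3.78 to 4.19. With the mean of both probe sets the differences were -4.22, -3.62 and -4.21, all still called.

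Abcb1a, the form of P-glycoprotein known from brain and gut barriers, read 8.22, 9.61 and 8.55 on the adrenal arrays. Its tumour values were 6.03, 5.56 and 5.19 in mutALK, 5.3, 4.69, 4.49 and 5.62 in MYCN and 5.17, 4.38 and 4.68 in double transgenic tumours. No tumour array reached an adrenal one, and here adrenal 2 was the highest rather than the lowest. Abcb1a changed by -3.2 ± 0.4 (adjusted p = 6.91e-05), -3.77 ± 0.37 (6.08e-06) and -4.05 ± 0.4 (7.75e-06) in the same order of tumour groups. Its other probe set gave -3.33, -4.22 and -4.72, all called, and the probe sets correlated at r = 0.98 over the 13 arrays, which fall into separate groups. Tumour means were 4.74 to 5.59 for Abcb1a and 4.94 to 6.26 for Abcb1b, while the list mean of kidney tubule markers was 4.73 to 5 on the tumour arrays. That list averaged 4.89, 5.94 and 4.9 on adrenal 1, 2 and 3, and its part in the Abcb1a values was not tested. With signal over background not analysed, no fold is given for Abcb1a and Abcb1b.

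Cell type markers moved with the P-glycoprotein genes. Of 11 measured adrenal cortex markers all 11 were lower in each tumour group, and the list averaged 11.2 to 12.61 in adrenal gland, 5.05 to 5.2 in mutALK, 5.07 to 5.34 in MYCN and 4.91 to 6.51 in double transgenic tumours. The lowest adrenal value (11.2, adrenal 2) and the highest tumour value (6.51, double transgenic 1) belonged to the arrays with the lowest adrenal and the highest tumour Abcb1b. Endothelial markers (16 measured) were lower for 15, 16 and 15 genes, with list means of 8.5 to 8.81 in adrenal gland, 6.62 to 7.33 in mutALK, 6.32 to 7.47 in MYCN and 5.56 to 6.02 in double transgenic tumours. Fat cell markers (9 measured) were lower for 9, 8 and 9 genes, averaging 10 to 11.98 in adrenal gland with adrenal 2 the highest, and 5 to 8.82 in the tumours. The part of these cell types in the result was not tested. Without the liver arrays, which include adrenal 2, the differences were -8.52, -6.65 and -8.56 for Abcb1b and -2.83, -3.25 and -3.86 for Abcb1a, all called.

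Abcg2 was the member called between mutALK and MYCN tumours, with its higher level in mutALK. It read 8.63, 8.95 and 9.07 in adrenal gland and 8.44, 9.5 and 8.69 in mutALK tumours, with means of 8.88 ± 0.23 and 8.88 ± 0.56. MYCN tumours read 7.47, 7.49, 7.27 and 7.49, and double transgenic tumours 7.94, 7.33 and 8.17. All MYCN and double transgenic arrays lay under every adrenal and mutALK array. Against adrenal gland Abcg2 differed by 0 ± 0.27 in mutALK tumours (adjusted p = 0.993), fell by 1.45 ± 0.25 in MYCN (0.000448) and fell by 1.07 ± 0.27 in double transgenic tumours (0.00598). Between tumours it was 1.44 ± 0.25 higher in mutALK than in MYCN (2.72-fold, adjusted p = 0.00127), a call kept under all 27 alternatives. Abcg2, like Abcc3 and Abcc4, has 1 probe set on the array, so no other probe set could be compared. By brightest probe set Abcg2 was the 1 member called in that comparison, in which 30.8% of all genes were called (13.6% higher and 17.2% lower in mutALK) and the groups did not overlap for 19% and 21.6%. Among the 10 Abcc5 probe sets 1 was called there, at 0.53 ± 0.17 (adjusted p over every probe set = 0.0424). The 10 ran from -0.07 to 0.54, with the brightest at 0.04 ± 0.24.

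Double transgenic tumours also had less Abcg2 than mutALK tumours, at -1.06 ± 0.27 (adjusted p = 0.0247). That call was lost under 6 of 27 alternatives, namely without mutALK 2 (-0.75, adjusted p = 0.0789), without double transgenic 2 (-0.82, 0.0993), with the compared groups alone (-1.06, 0.105) and with sex as a covariate (-1, 0.0503). The other two were the fits that treat arrays of a shared title number, such as mutALK 2 and 3, as a random block (-1, 0.0706) or average them (-0.95, 0.0575). The difference between double transgenic and MYCN tumours was 0.38 ± 0.25 (0.373). Chromaffin cell markers, which belong to the adrenal medulla, were highest in the groups with most Abcg2. Their list mean was 10.43 to 11.5 in adrenal gland, 11.17 to 11.64 in mutALK, 8.7 to 9.38 in MYCN and 10.01 to 10.61 in double transgenic tumours, and 5 of 8 were higher in mutALK than in MYCN. Erythroid markers (5 measured) averaged 5.4, 8.32 and 6.38 in mutALK 1, 2 and 3, the order of their Abcg2 values, against 4.93 to 5.47 in MYCN, 4.67 to 4.98 in double transgenic tumours and 5.09 to 5.34 in adrenal gland, and 2 of 5 were higher in mutALK than in MYCN. Mitosis genes (14 measured) were lowest in the groups with most Abcg2. They averaged 5.79 to 6.8 in adrenal gland, 8.85 to 9.72 in mutALK, 10 to 10.55 in double transgenic and 10.72 to 10.98 in MYCN tumours. Of the 14, 13 were lower in mutALK than in MYCN. The part of these cell types and of cell division in the result was not tested.

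**Figure D2:**
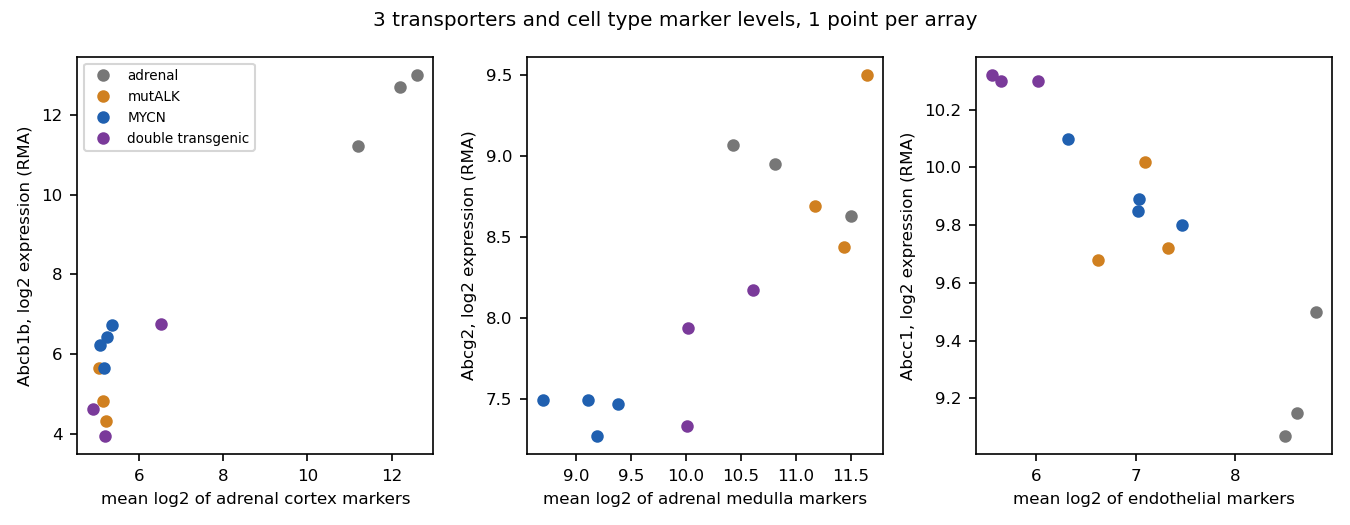
Each point is 1 of 13 arrays, with the log2 expression of Abcb1b, Abcg2 and Abcc1 (y axes) against the mean log2 level of adrenal cortex, adrenal medulla (chromaffin) and endothelial markers (x axes). The adrenal arrays stand apart at the top right for Abcb1b and at the bottom right for Abcc1, and the MYCN arrays lie at the bottom left for Abcg2. Each gene is shown with the list it correlated with most strongly (r = 0.97, 0.84 and -0.91). Other lists came close, such as neuronal markers for Abcb1b (-0.94), mitosis genes for Abcg2 (-0.78) and fat cell markers for Abcc1 (-0.83). Liver markers did not (0.01, 0.15 and 0.12).

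The ABCC exporters moved in both directions. Abcc1, which exports glutathione conjugates and vincristine, read 9.15, 9.5 and 9.07 in adrenal gland, 9.68, 9.72 and 10.02 in mutALK, 10.1, 9.85, 9.89 and 9.8 in MYCN and 10.3, 10.32 and 10.3 in double transgenic tumours. Each tumour array lay above each adrenal array, and the 3 double transgenic arrays lay above all others. Abcc1 rose by 0.57 ± 0.14 in mutALK (adjusted p = 0.00563), 0.67 ± 0.13 in MYCN (0.000924) and 1.07 ± 0.14 in double transgenic tumours (2.1-fold, 5.61e-05). Double transgenic tumours were 0.5 ± 0.14 above mutALK tumours (0.034) and 0.4 ± 0.13 above MYCN tumours (0.0661).

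The excess of Abcc1 in double transgenic tumours was not shared by its other probe set. That dimmer probe set read 7.25, 7.47 and 7.05 in double transgenic tumours, 7.8, 7.49 and 7.95 in mutALK, 7.88, 7.76, 7.67 and 7.54 in MYCN and 6.98, 7.31 and 6.88 in adrenal gland. It rose by 0.69 ± 0.16 and 0.66 ± 0.15 in mutALK and in MYCN tumours (adjusted p = 0.00601 and 0.00406), but in double transgenic tumours the difference was 0.2 ± 0.16 (0.368) and against mutALK -0.49 ± 0.16 (0.0703). The probe sets correlated at r = 0.41 over 13 arrays. Their mean differed by 0 between double transgenic and mutALK tumours, and that call of Abcc1 was lost under 13 of 27 alternatives, including without mutALK 1 or 2, MYCN 2 or 3, or any of the 3 double transgenic arrays (0.44 to 0.51, adjusted p = 0.0502 to 0.114), and with the shared title number as a random block (0.52, 0.0619) or averaged (0.53, 0.0627).

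Abcc4, which exports cyclic nucleotides and prostaglandins, was tightly grouped in adrenal gland at 9.12, 9.04 and 9.04. It read 8.1, 8.34 and 8.02 in mutALK, 7.49, 7.96, 7.87 and 8.21 in MYCN and 8.31, 7.66 and 7.73 in double transgenic tumours, with no tumour array reaching the adrenal level. Abcc4 changed by -0.91 ± 0.2 in mutALK (adjusted p = 0.00312), -1.19 ± 0.19 in MYCN (0.000226) and -1.17 ± 0.2 in double transgenic tumours (0.000467). Without the liver arrays the mutALK difference was -0.73 ± 0.28 (0.087), on 1 mutALK array, and the others stayed called.

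Abcc3, an exporter of glucuronides and bile salts, moved the other way. It read 6.93, 6.63 and 7.05 in adrenal gland, 8.11, 7.78 and 7.53 in mutALK, 7.54, 8.03, 7.94 and 8.22 in MYCN and 8.08, 7.68 and 6.91 in double transgenic tumours. Double transgenic 3 was the 1 tumour array within the adrenal range. Abcc3 rose by 0.94 ± 0.28 in mutALK (adjusted p = 0.0177) and 1.06 ± 0.26 in MYCN tumours (0.00488), and the double transgenic difference was 0.69 ± 0.28 (0.0622). The mutALK call was lost without mutALK 1 (0.78, adjusted p = 0.0685), without adrenal 2 (0.81, 0.0577) and when the liver arrays were left out (0.79, 0.159). The double transgenic difference was called under 4 alternatives. These were leaving out double transgenic 3 (1.01, 0.00521), sex as a covariate (1.04, 0.00711), array weights (0.72, 0.0141) and leaving out the dimmest 40% of genes (0.69, 0.0466).

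Abcc5, an exporter of cyclic nucleotides, has 10 probe sets on the array. The brightest read 8.31, 8.62 and 8.27 in adrenal gland, 9.35, 8.33 and 8.16 in mutALK, 8.83, 8.55, 8.55 and 8.39 in MYCN and 9.01, 9.34 and 9.03 in double transgenic tumours. The double transgenic arrays lay above all adrenal and MYCN arrays, whereas mutALK 1 stood apart from mutALK 2 and 3. Abcc5 was 0.72 ± 0.26 higher in double transgenic tumours than in adrenal gland (adjusted p = 0.0385), a call lost under 11 of 27 alternatives, and differed by 0.21 ± 0.26 in mutALK (0.574) and 0.18 ± 0.24 in MYCN tumours (0.599). The mean of the 10 probe sets gave 0.3 in double transgenic tumours (adjusted p = 0.0951). Single-array losses of that call came without MYCN 2 or 3, adrenal 1 or 3, or any double transgenic array (0.62 to 0.78, adjusted p = 0.0517 to 0.125). Probe sets of Abcc5 correlated with each other at r = -0.43 to 0.96 (median 0.47), and against adrenal gland 1, 0 and 2 of the 10 were called in mutALK, MYCN and double transgenic tumours.

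**Figure D3:**
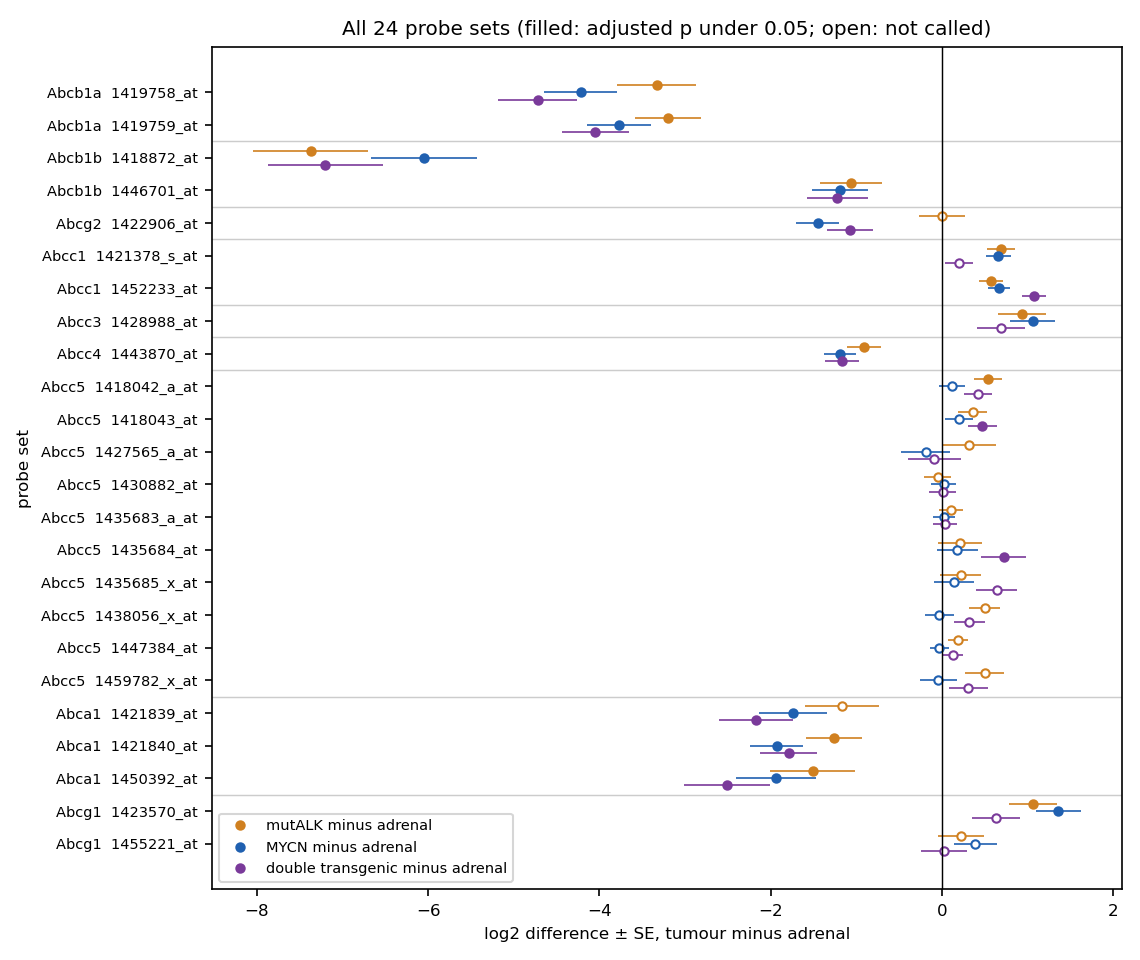
Log2 difference ± SE (x axis) of each of the 24 probe sets in the 3 tumour groups against adrenal gland, with filled points for an adjusted p under 0.05 over all 45037 probe sets. The probe sets of Abcb1a and Abca1 lie together, while those of Abcb1b, Abcc1 and Abcg1 differ in size and those of Abcc5 lie on both sides of 0.

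The lipid exporters moved in opposite directions. Abca1, which loads cholesterol onto apolipoprotein A-I, read 12.38, 11.41 and 12.62 in adrenal gland, 11.13, 11.18 and 10.31 in mutALK, 9.95, 9.96, 10.46 and 10.44 in MYCN and 10.63, 10.4 and 10.03 in double transgenic tumours. No tumour array reached adrenal 2, the lowest adrenal array, on this brightest probe set. On the dimmer probe sets adrenal 2 read 6.01 and 4.96, within the mutALK ranges of 5.63 to 6.26 and 4.4 to 5.16. Abca1 changed by -1.26 ± 0.33 in mutALK (2.4-fold, adjusted p = 0.00854), -1.93 ± 0.31 in MYCN (0.000237) and -1.79 ± 0.33 in double transgenic tumours (3.45-fold, 0.000764). Its 3 probe sets correlated at r = 0.92 to 0.95, and 8 of their 9 differences were called, the exception being 1 probe set in mutALK tumours (-1.17 ± 0.43, adjusted p = 0.0579). With the arrays of the compared groups alone the mutALK fall had an adjusted p of 0.0529.

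Abcg1, which passes cholesterol to high-density lipoprotein and is abundant in macrophages, read 7.9, 8.3 and 8 in adrenal gland. It read 9.59, 9.13 and 8.65 in mutALK, 9.15, 9.18, 9.28 and 10.09 in MYCN and 8.91, 8.8 and 8.38 in double transgenic tumours. All tumour arrays lay above all adrenal arrays, double transgenic 3 by the least. Abcg1 rose by 1.06 ± 0.28 in mutALK (adjusted p = 0.0102) and 1.36 ± 0.27 in MYCN tumours (0.00107), and differed by 0.63 ± 0.28 in double transgenic tumours (0.0884). The mutALK call was lost with the mean of its 2 probe sets (0.64, adjusted p = 0.0653) and, on 1 mutALK array, without the liver arrays (1.18). The double transgenic difference gained a call under 4 alternatives. These were sex as a covariate (1.06, 0.00191), array weights (0.82, 0.0188), the compared groups alone (0.63, 0.041) and leaving out MYCN 4 (0.63, 0.0392). With sex as a covariate Abcg1 was also called in mutALK minus MYCN (-0.57, 0.0385) and in double transgenic minus MYCN (-0.78, 0.0151). The dimmer probe set was not called, at 0.22 ± 0.27, 0.39 ± 0.25 and 0.02 ± 0.27.

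Macrophage markers (14 measured) were higher for 4, 4 and 0 genes and lower for 0, 1 and 2 in the 3 tumour groups (in the order mutALK, MYCN, double transgenic) than in adrenal gland. Their list mean ran from 8.28 to 9.28 in adrenal gland, 9.14 to 9.89 in mutALK, 8.64 to 9.54 in MYCN and 7.99 to 8.82 in double transgenic tumours, with MYCN 4 highest of the MYCN tumours in this list as in Abcg1. The part of macrophages in the Abcg1 result was not tested.

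**Figure D4:**
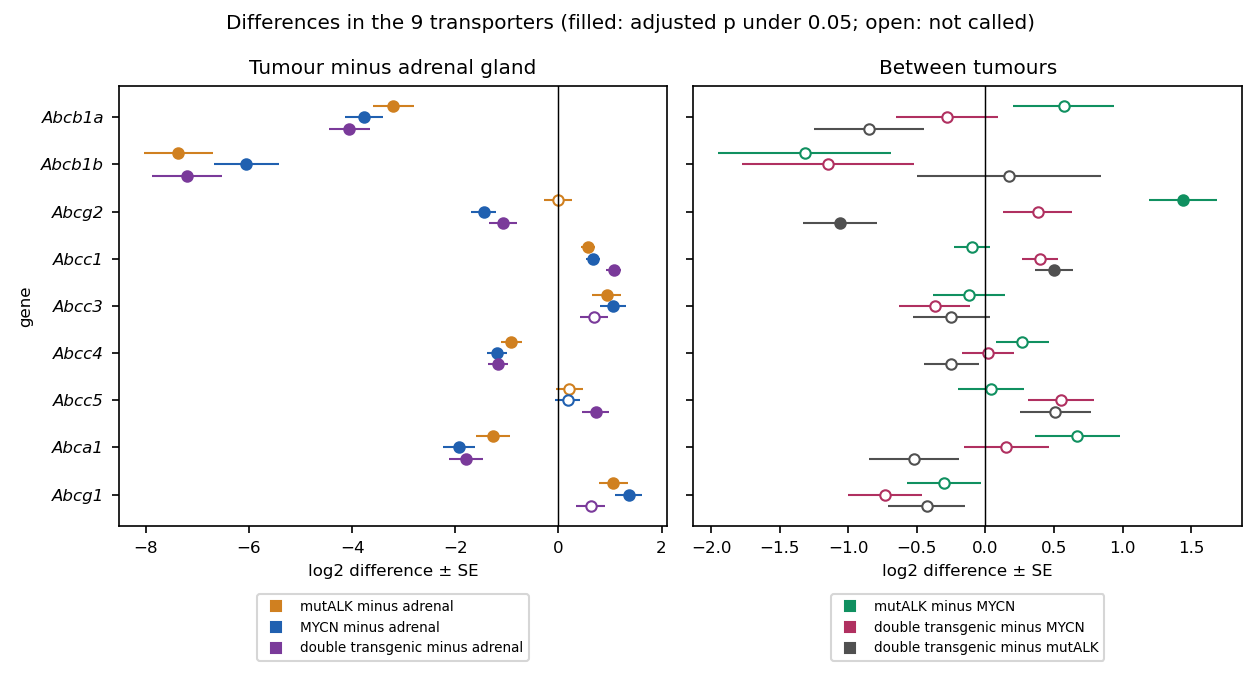
Log2 difference ± SE (x axis) of the 9 transporters for each tumour group against adrenal gland (left) and between tumour groups (right), with filled points for an adjusted p under 0.05. Against adrenal gland 22 of 27 differences are filled, and between tumours the filled points are Abcg2 in both comparisons with mutALK and Abcc1 in double transgenic minus mutALK.

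Between tumour groups 3 of 27 differences were called. In mutALK minus MYCN 1 of 9 was called (Abcg2). In double transgenic minus MYCN limma called 0 of 9, where 12.8% of all genes were called (6.16% higher and 6.66% lower), and 3 members had an unadjusted p under 0.05, as did 26.9% of all genes: Abcc1 (0.00976), Abcg1 (0.0191) and Abcc5 (0.0466). Their differences were 0.4 ± 0.13, -0.73 ± 0.27 and 0.55 ± 0.24. With these brightest probe sets the groups did not overlap in any of the 3 genes, as for 14.3% of all genes on the higher and 16.2% on the lower side. The other Abcc1 probe set went the opposite way, also without overlap, at -0.46 ± 0.15 (adjusted p over every probe set = 0.0791). The other Abcg1 probe set overlapped, at -0.37 ± 0.25, and the 10 Abcc5 probe sets ran from -0.01 to 0.55. In double transgenic minus mutALK 2 of 9 were called (Abcg2 lower, Abcc1 higher), where 14.4% of all genes were called (8.39% higher and 6.04% lower) and 16.9% and 16% did not overlap. The median size of the members' differences was 0.3, 0.38 and 0.5 in the 3 comparisons, against 0.29, 0.21 and 0.24 over all genes.

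Abcb1b was not called between tumours, at -1.32 ± 0.63 in mutALK minus MYCN (adjusted p = 0.145) and -1.15 ± 0.63 in double transgenic minus MYCN (0.277). Its dimmer probe set differed by 0.13 ± 0.33 and -0.03 ± 0.33 (adjusted p over every probe set = 0.839 and 0.973). The mean of both probe sets differed by -0.59 in each comparison. Double transgenic 1, a liver array, read 6.75 against 4.64 and 3.95. Without it the differences of the brighter probe set were -1.32 (0.0492) and -1.97 (0.0377). Without all liver arrays they were -1.88 ± 0.44 (0.0232) and -1.91 ± 0.34 (0.023). Abca1 likewise was called in mutALK minus MYCN only under some alternatives, with 0.67 ± 0.31 (0.13) over all arrays and 0.89 ± 0.26 (0.0493) without the liver arrays.

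Ordered by group mean, Abcb1a, Abcb1b, Abcc4 and Abca1 were each highest in adrenal gland, and only the step from adrenal gland to the next group passed the test between neighbours. Abcg2 ran from adrenal gland through mutALK and double transgenic to MYCN, with the step from mutALK to double transgenic called. Abcc1 ran from double transgenic through MYCN and mutALK to adrenal gland, with the last step called. For Abcc3 and Abcg1 (MYCN, mutALK, double transgenic, adrenal) and Abcc5 (double transgenic, mutALK, MYCN, adrenal) no step between neighbours passed.

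Other ABC genes were read from lists by function. Of 39 measured ABC genes outside the 9, 2 were higher and 9 lower in mutALK tumours than in adrenal gland (28.2% called), 6 and 10 in MYCN (41%) and 7 and 13 in double transgenic tumours (51.3%). The median size of their differences was 0.31, 0.5 and 0.38. Among 11 further ABCA lipid transporters 1, 0 and 1 were higher and 4, 5 and 5 lower. Abca8a changed by -1.95 ± 0.62 in mutALK (adjusted p = 0.0253), -4.64 ± 0.58 in MYCN (4.07e-05) and -2.71 ± 0.62 in double transgenic tumours (0.00346), and Abca9 by -1.05 ± 0.37, -2.66 ± 0.35 and -2.43 ± 0.37. Abca5 rose by 1.52 ± 0.22 in mutALK (0.000204) and 1.22 ± 0.22 in double transgenic tumours (0.00066), with 0.39 ± 0.21 in MYCN (0.143). Between mutALK and MYCN tumours 5 of the 11 were higher in mutALK, led by Abca8a (2.69 ± 0.58) and Abca7 (1.96 ± 0.32).

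**Figure D5:**
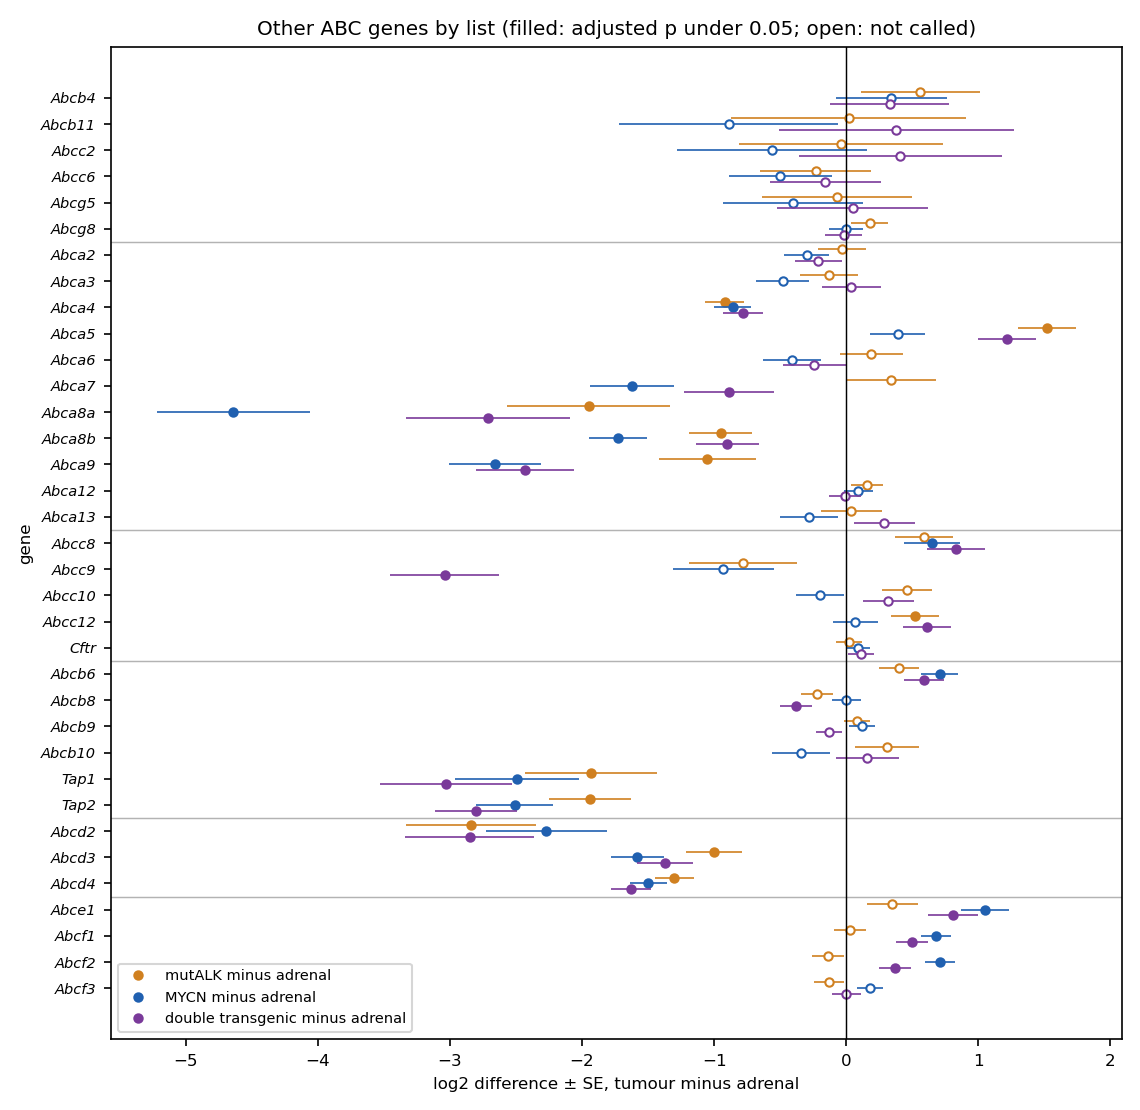
Log2 difference ± SE (x axis) of 35 other ABC genes in the 3 tumour groups against adrenal gland, grouped from top to bottom as hepatobiliary, other ABCA, other ABCC, organelle ABCB, ABCD and ABCE/ABCF genes, with filled points for an adjusted p under 0.05. No hepatobiliary gene is filled, and Tap1, Tap2 and the 3 ABCD genes are filled below 0 in each group.

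Tap1 and Tap2, which load peptides onto MHC class I, were lower in each tumour group, at -1.93 ± 0.5 and -1.94 ± 0.31 in mutALK, -2.49 ± 0.47 and -2.51 ± 0.29 in MYCN and -3.03 ± 0.5 and -2.8 ± 0.31 in double transgenic tumours. The 3 measured ABCD genes, of which Abcd2 and Abcd3 are peroxisomal importers of fatty acids, were lower in each group, with Abcd2 at -2.84 ± 0.49, -2.27 ± 0.46 and -2.85 ± 0.49. Abcc9, the sulphonylurea receptor subunit of vascular and muscle potassium channels, was lower in double transgenic tumours than in adrenal gland (-3.04 ± 0.41), MYCN (-2.11 ± 0.38) and mutALK tumours (-2.26 ± 0.41). Double transgenic tumours also had the lowest endothelial list mean, and the part of endothelial cells in the Abcc9 result was not tested. Of 4 ABCE and ABCF genes, which act in translation and do not transport, 3 were higher in MYCN and in double transgenic tumours and 0 in mutALK tumours, and all 4 were lower in mutALK than in MYCN (Abcf2 at -0.86 ± 0.11, adjusted p = 0.000263).

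The 6 hepatobiliary ABC genes (Abcb4, Abcb11, Abcc2, Abcc6, Abcg5 and Abcg8) gave limma 0 calls in all 6 comparisons. Their list mean was 6.59 in double transgenic 1, 5.92 in adrenal 2 and 5.58 in mutALK 1, which are 3 of the 5 liver arrays, and 4.47 to 5.07 on the other 10, which include the liver arrays mutALK 3 (5) and MYCN 2 (5.07). Abcb11, the bile salt export pump, read 8.33, 6.84 and 6.89 on those 3 arrays and 4.5 to 5.07 elsewhere.

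Genes that act on or with the transporters were read from further lists. Of 16 measured regulators 1, 3 and 2 were higher and 9, 8 and 8 lower than in adrenal gland. Nr5a1, the steroidogenic factor of the cortex, was lower, at -4.98 ± 0.36, -5.06 ± 0.34 and -5.12 ± 0.36, as was Nfe2l2, the oxidative stress factor that induces ABCC genes, at -2.02 ± 0.33, -2.33 ± 0.31 and -2.92 ± 0.33. The lipid-sensing receptor genes Pparg (-3.48 ± 0.58, -2.55 ± 0.55 and -3.67 ± 0.58) and Ppara (-2.59 ± 0.59, -2.56 ± 0.56 and -2.64 ± 0.59) were lower too. The liver X receptor gene Nr1h3 was lower, at -1.17 ± 0.29, -0.78 ± 0.27 and -1.52 ± 0.29. The aryl hydrocarbon receptor gene Ahr, a factor known to act on Abcg2, was higher in mutALK tumours than in adrenal gland (1.53 ± 0.42, adjusted p = 0.0112) and than in MYCN tumours (2.11 ± 0.39, 0.00184).

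Of 9 measured targets of liver X receptors besides Abca1 and Abcg1, 0 were higher and 5, 7 and 6 lower. Scd1, a fatty acid desaturase, was at -5.11 ± 1.2, -3.71 ± 1.12 and -4.32 ± 1.2, and Lpcat3, a phospholipid acyltransferase, at -3.01 ± 0.27, -3.17 ± 0.26 and -3.15 ± 0.27. Of 12 genes of cholesterol uptake, storage and release 0 were higher and 5, 9 and 7 lower. Star, which carries cholesterol into mitochondria and is itself a cortex marker, was at -6.63 ± 0.37, -6.73 ± 0.34 and -6.15 ± 0.37, and Scarb1, the receptor for high-density lipoprotein, at -5.06 ± 0.44, -3.71 ± 0.42 and -4.73 ± 0.44. Lipe, the hormone-sensitive lipase, was at -4.42 ± 0.5, -3.77 ± 0.46 and -4.44 ± 0.5. Of 13 glutathione genes, which make or use the conjugation partner of ABCC substrates, 0 were higher and 7, 9 and 10 lower, with Gstm2 at -4.22 ± 0.47, -4.58 ± 0.44 and -5.13 ± 0.47 and Gsta4 at -4.3 ± 0.46, -4.01 ± 0.43 and -3.9 ± 0.46. Mgst3 differed most between tumours, at 3.3 ± 0.24 in mutALK minus MYCN (adjusted p = 1.49e-05) and 1.74 ± 0.24 in double transgenic minus MYCN (0.00161).

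The genes whose log2 values followed each transporter most closely over the 13 arrays are given as a description, since the arrays fall into groups and share their normalization. They were Acadm (Pearson r = 0.99) and Etfdh (0.987) for Abcb1a, Gprc5b (0.988) and Scarb1 (0.986) for Abcb1b, and Ap5s1 (0.96) and Casp9 (0.957) for Abcg2. For the ABCC genes they were Gtf2ird1 (0.97) and Bcl2l13 (0.965) for Abcc1, Dtwd2 (0.954) and Spic (0.94) for Abcc3, Aldh6a1 (0.978) and Fam210b (0.976) for Abcc4, and Zfp974 (0.85) and Zfp235 (0.848) for Abcc5. For the lipid exporters they were Ficd (0.977) and Ly96 (0.977) for Abca1 and Spic (0.941) and Smyd3 (0.925) for Abcg1.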

How the data were processed

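RNA of 10 tumours and 3 adrenal glands was measured on Affymetrix mouse arrays. The deposited values are log2 expression made by the authors with RMA in Partek, per the submitters' processing notes. Versions are not given there. The table held 45101 probe sets (64 controls). Of the others, 932 carried several symbols and 9211 none, and these stayed out of gene-level fits. RefSeq (GRCm38.p6) matched 34741 of 34945 probe sets by gene ID and changed 0 symbols. The brightest probe set by mean over arrays stood for its gene, with no filter on dim genes. The linear model, with a mean for each group and all 13 arrays, was run in limma 3.58.1 under R 4.3.3 (lmFit, eBayes, 9 residual and 2.28 prior degrees of freedom). The 6 contrasts were tested two-sided with Benjamini-Hochberg adjustment over all 18193 genes, or 45037 probe sets where probe sets are named.

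Tested on simulated data, in which 200 of 18193 genes were changed, the fit found 57 to 72% of 1-unit and 89 to 93% of 2-unit log2 changes and made 7 to 17 false calls. The simulated noise was independent between arrays, without shared title numbers or liver arrays. Far fewer genes were changed than were called in the real comparisons, so these rates need not hold for them. The members and lists were chosen with earlier results of these data known. The text names all 9 members, genes from among the 4 largest called differences of each list in a comparison, and the 2 genes most correlated with each member, without predicted and Y-linked genes. Nr1h3 and the hepatobiliary genes were named after their values were seen. Among the 27 alternatives were quantile normalization again, median centring, the mean of all probe sets, and the brightest probe set adjusted over all 45037 probe sets. Others were leaving out the dimmest 40% of genes, a robust variance trend, array weights, compared groups alone, and title numbers averaged or as a random block. Sex or liver list mean was added as a covariate. The rest left out the arrays with a liver list mean above 8, adrenal 2 with double transgenic 1, or each array in turn. None of the alternatives tested the other probe sets of a gene on their own. Python 3.11.15 with matplotlib 3.10.9 drew the figures.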

Additional observations from a re-analysis of the deposited data

Results flagged for a closer look

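In groups of 4 the gap of an extreme array to its nearest neighbour was compared with the group's range, which was possible for the MYCN tumours alone. Over the 24 probe sets 2 exceeded Dixon's critical value, where chance gives about 1 in 20. For Abcg2 the ratio was 0.939, with MYCN 3 at 7.27 and the other MYCN tumours at 7.47 to 7.49, a gap of small absolute size. For Abcg1 the ratio was 0.871, with MYCN 4 at 10.09 and the others at 9.15 to 9.28. MYCN 4 also had the highest macrophage list mean of its group (9.54) and the highest fat cell list mean (8.82). It was likewise highest for liver X receptor targets (9.74), regulators (7.78) and glutathione genes (7.76). The same held for endothelial (7.47), erythroid (5.47) and adrenal cortex markers (5.34). It was not highest for cholesterol genes, mitosis genes or liver, chromaffin, kidney and neuronal markers. The part of any of these in its Abcg1 value was not tested.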

How the results depend on the processing

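Of 54 member differences 25 were called, 18 of them under every one of the 27 alternatives (26 for Abcb1a, which falls among the dimmest 40% of genes). The other 7 lost their call under at least 1 alternative, 10 uncalled differences gained one, and 0 called differences changed sign. No paired analysis was possible because the replicate numbers follow accession order and pair no samples across groups. Precision is limited by 3 or 4 arrays a group, and the signal over background of the dim probe sets was not measured. The causes of the changes given here were not tested.

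The count of members called in mutALK minus adrenal was 7 and became 4 without the liver arrays. In mutALK minus MYCN it was 1 and became 2 with array weights, with the compared groups alone, with sex as a covariate and without adrenal 2 and double transgenic 1, and 3 without the liver arrays. In double transgenic minus MYCN it was 0 and became 1 with array weights, with sex, without the liver arrays and without adrenal 2 and double transgenic 1, and 2 with the compared groups alone. In double transgenic minus mutALK it was 2 and became 1 with the mean of all probe sets and without the liver arrays, and 0 with the compared groups alone, with title numbers as a random block or averaged, and with sex. Leaving out 1 array at a time gave 6 to 7, 8 to 8, 6 to 8, 1 to 2, 0 to 1 and 0 to 2 in the order mutALK, MYCN and double transgenic minus adrenal, mutALK minus MYCN, double transgenic minus MYCN and double transgenic minus mutALK.

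Changes of sign concerned uncalled differences. Abcg2 in mutALK minus adrenal turned to 0.23 with array weights, 0.05 with sex, 0.02 with the liver covariate, 0.65 without the liver arrays and 0.03 without adrenal 2 and double transgenic 1 (-0.32 to 0.21 leaving out 1 array). Abcc5 turned to -0.03 with the liver covariate and -0.26 without the liver arrays in mutALK minus MYCN (-0.33 to 0.26 leaving out 1 array), and ran from -0.15 to 0.44 in mutALK minus adrenal. In double transgenic minus MYCN, Abcc4 gave 0 with quantile normalization and array weights, -0.02 with sex, -0.01 with the liver covariate, -0.16 without the liver arrays and -0.19 without adrenal 2 and double transgenic 1 (-0.19 to 0.14 leaving out 1 array). In that comparison the mean of all probe sets gave -0.03 for Abcc1, which was 0.4 with its brightest probe set, and -0.28 for Abca1, which was -0.07 without the liver arrays. Abcb1b in double transgenic minus mutALK gave -0.03 without the liver arrays and -0.64 without adrenal 2 and double transgenic 1 (-0.64 to 0.76 leaving out 1 array). Leaving out 1 array, Abcc3 ran from -0.28 to 0.02 in mutALK minus MYCN and from -0.51 to 0.07 in double transgenic minus mutALK.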
